A study of Mus musculus with 12 samples.

Results

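DARPP-32 and the cAMP signalling genes around it were read in mouse striatum as 9 genes (Ppp1r1b, Adcy5, Gnal, Gng7, Arpp19, Arpp21, Ptpn5, Prkar2b and Prkaca). Every probe set that the array's probe table pairs with 1 of these genes alone was taken, which gave 25 of the 45037 probe sets tested and 9 of the 18193 genes measured. Where a gene has several, the one with the highest 12-array mean, called the brightest, stands for it, and the others are given beside it. Total striatal RNA was labelled with biotin and hybridised to Affymetrix whole-genome mouse expression arrays, 1 array per mouse, and the deposited values are log2 signals. The groups are homozygous HdhQ92/Q92 knock-in mice at 18 months (Q92, 2 females and 1 male of 567 to 596 days), wild-type mice at 18 months (2 females and 1 male of 596 to 604 days), Q92 mice at 3 months (2 females and 1 male of 100 to 103 days) and wild-type mice at 3 months (1 female and 2 males of 100 to 103 days). In the Q92 mice a stretch of human HD exon 1 with 92 CAG repeats replaces the matching part of the mouse's own huntingtin gene, so the mutant protein is made wherever that gene is active, and no wild-type copy is left. All mice were C57BL/6, each group had 3 mice, and animals are named by group and number (for example Q92_18m_66). At 18 months the Q92 mice were as old as or younger than the wild-type mice, so age in days went partly with genotype.

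In the projection neurons that make up most of the striatum, dopamine and adenosine receptors act on a shared enzyme cascade. An olfactory-type stimulatory G protein activates adenylyl cyclase, the cAMP formed frees the catalytic subunits of protein kinase A (PKA), and PKA phosphorylates DARPP-32, which then blocks protein phosphatase 1. Several other PKA substrates of these neurons, among them the ARPP proteins and the tyrosine phosphatase STEP, carry the signal to other phosphatases, to calmodulin and to kinases, and most of these genes are known for their high expression in striatum.

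Promoter windows are shown because cAMP signalling can act on its own genes through the cAMP response element. RefSeq windows of assembly GRCm38.p6, each from 250 bases before to 50 bases after a transcript start, were searched for 7 of the 9 genes (20 windows), all but Ppp1r1b and Gnal. The full element TGACGTCA was in 0 of the 20 windows, and in 1.79% of the 32851 windows of all genes. Its core TGACG, searched on both strands as TGACG or CGTCA and contained in the full element, was in 5 of the 20 windows and in 20.8% of all windows. These 5 windows belong to Arpp21, Gng7 and Prkaca, and 2 of the 3 Arpp21 windows with a match overlap and share it. TATAAA, searched on both strands with its complement TTTATA, was in 0 of the 20 windows and in 13.6% of all. Adcy5 had the largest difference below among the brightest probe sets of the 9 genes, the Arpp21 probe sets disagreed, and Prkaca hardly differed. Windows of these genes are printed 5′ to 3′ with the core elements in capitals. They lie at chr16:35154614-35154913 (plus strand) for Adcy5, at chr9:112185900-112186199 and chr9:112217212-112217511 (both minus strand) for Arpp21, and at chr8:83972728-83973027 (plus strand) for Prkaca.
Adcy5: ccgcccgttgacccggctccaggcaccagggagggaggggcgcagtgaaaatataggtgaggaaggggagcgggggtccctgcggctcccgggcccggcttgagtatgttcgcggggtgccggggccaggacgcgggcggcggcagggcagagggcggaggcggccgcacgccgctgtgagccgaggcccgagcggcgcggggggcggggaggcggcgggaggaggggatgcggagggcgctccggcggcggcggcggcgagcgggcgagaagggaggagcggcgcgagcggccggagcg
Arpp21, first window: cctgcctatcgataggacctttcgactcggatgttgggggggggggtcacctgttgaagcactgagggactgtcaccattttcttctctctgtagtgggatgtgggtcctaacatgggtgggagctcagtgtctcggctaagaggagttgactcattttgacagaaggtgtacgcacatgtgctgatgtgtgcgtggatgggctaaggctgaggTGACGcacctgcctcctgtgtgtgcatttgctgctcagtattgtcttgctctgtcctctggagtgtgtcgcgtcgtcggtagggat
Arpp21, second window: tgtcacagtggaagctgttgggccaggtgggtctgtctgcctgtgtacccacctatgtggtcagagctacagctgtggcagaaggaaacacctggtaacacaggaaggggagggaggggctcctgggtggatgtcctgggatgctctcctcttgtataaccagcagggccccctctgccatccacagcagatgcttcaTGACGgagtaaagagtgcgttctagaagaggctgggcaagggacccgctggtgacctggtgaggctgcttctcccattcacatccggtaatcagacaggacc
Prkaca: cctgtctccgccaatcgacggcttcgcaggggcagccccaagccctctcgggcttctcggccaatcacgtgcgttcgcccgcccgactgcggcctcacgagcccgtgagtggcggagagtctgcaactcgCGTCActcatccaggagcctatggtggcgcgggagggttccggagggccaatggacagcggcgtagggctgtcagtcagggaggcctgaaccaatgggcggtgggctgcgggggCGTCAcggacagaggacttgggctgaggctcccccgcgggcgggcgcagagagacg
The Arpp21 matches begin 36 and 52 bases before their transcript starts and those of Prkaca 120 and 6 bases before, while the Adcy5 window holds none. A match describes these letters and is not a measured site.

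At 18 months the brightest probe sets of all 9 genes averaged lower in Q92 than in wild-type striatum, by a log2 difference of 0.00 to 1.01, and 0 of the 25 probe sets passed an adjusted p of 0.05 (limma, Benjamini-Hochberg over 45037 probe sets). The lowest adjusted p was 0.0557, for an Arpp21 probe set, and 0.0533% of all probe sets passed in this comparison. The median difference of the 9 genes was -0.65, against -0.00 for all 18193 genes, of which 50.4% were lower. An unadjusted p under 0.05 with a lower mean was reached by 6 of the 9 genes, against 4.95% of all genes, and by 11 of the 25 probe sets, against 4.24% of all. In 6 genes (Ppp1r1b, Adcy5, Gng7, Arpp19, Arpp21 and Ptpn5) all 3 Q92 mice lay below all 3 wild-type mice, as in 7.51% of all genes, and 12 of the 25 probe sets behaved so, against 6.76% of all. The other 3 genes, Gnal, Prkar2b and Prkaca, overlapped between genotypes. Fewer projection neurons in the tissue and less RNA per neuron cannot be told apart in whole striatum.

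**Figure D1:**
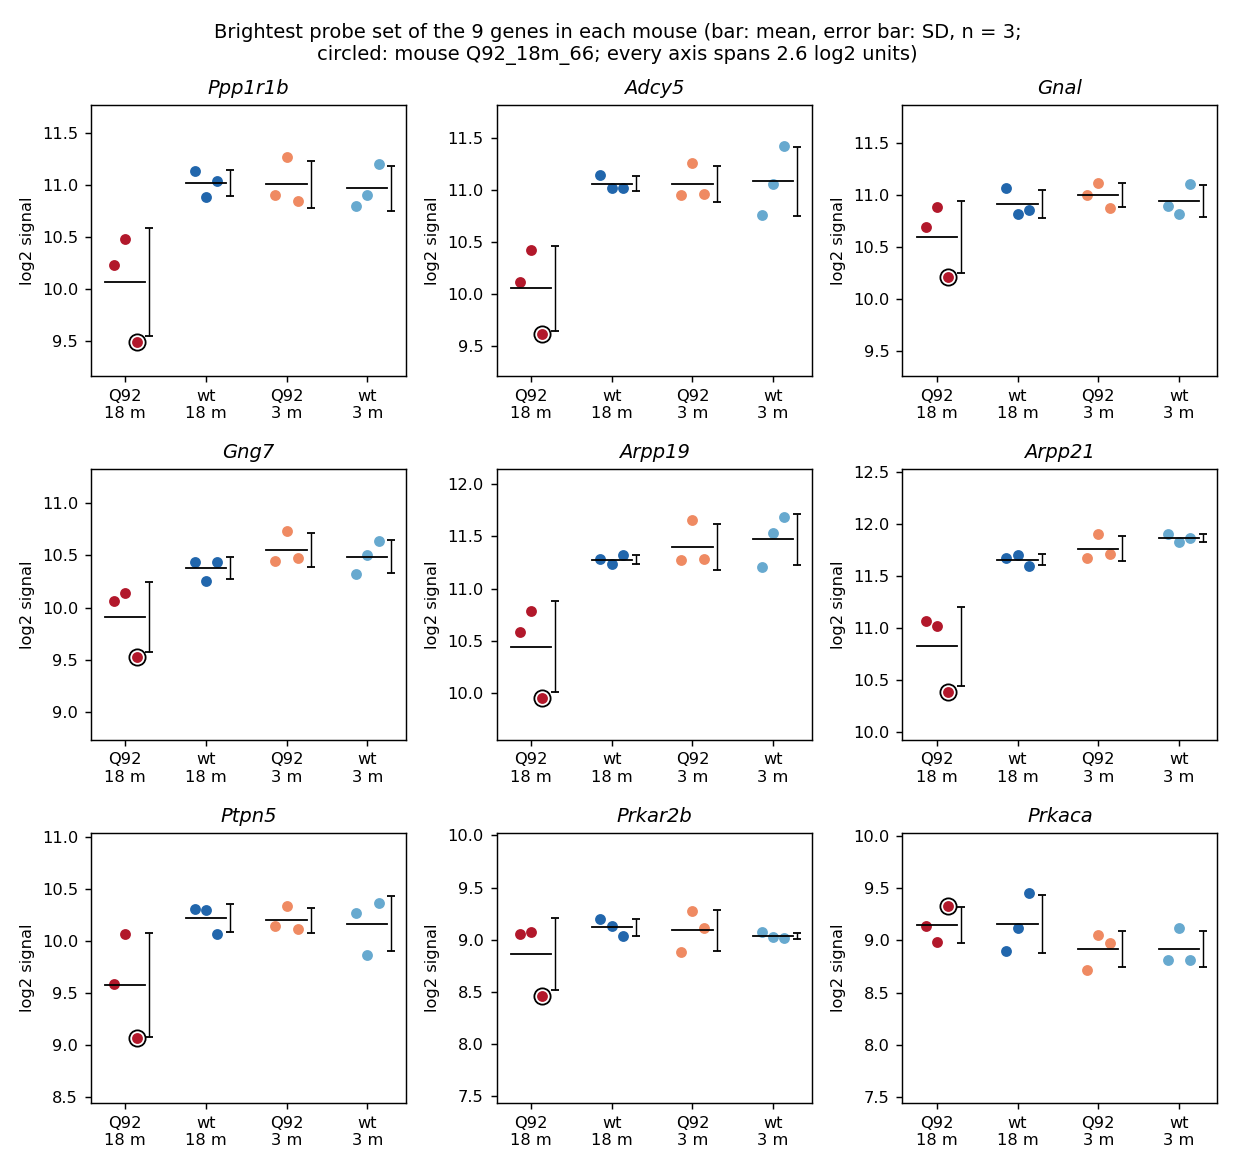
Log2 signal (y axis) of the brightest probe set of each of the 9 genes in every mouse, grouped from left to right as Q92 and wild-type mice at 18 months and Q92 and wild-type mice at 3 months, where points are mice horizontal lines are group means and vertical bars are SDs of 3 mice. At 18 months the Q92 mice lie below the wild-type mice in 6 panels, mouse Q92_18m_66 is the lowest of 12 in 8 panels, and at 3 months the genotypes overlap in every panel.

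The G protein came first in the cascade. Gnal encodes the olfactory-type alpha subunit that couples dopamine and adenosine receptors to adenylyl cyclase. Its log2 signals were 10.70, 10.88 and 10.21 in Q92 mice 11, 25 and 66 at 18 months, against 11.07, 10.82 and 10.86 in wild-type mice 9, 12 and 17. Only Q92 mouse 66 stood clearly apart, and mouse 25 was above 2 of the 3 wild-type mice. The log2 difference was -0.32 (SE 0.15, 95% interval -0.65 to 0.02, adjusted p = 0.653). A less bright Gnal probe set differed by -0.17 (SE 0.14, adjusted p = 0.840), and the dimmest, with signals of 3.91 to 4.30, by 0.00.

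Gng7 encodes the gamma subunit that assembles with the olfactory-type alpha subunit in striatum. It had log2 signals of 10.07, 10.14 and 9.52 in Q92 mice 11, 25 and 66 at 18 months, against 10.43, 10.25 and 10.44 in the wild-type mice. The groups did not overlap, although Q92 mouse 25 and wild-type mouse 12 were close. The difference was -0.47 (SE 0.15, adjusted p = 0.443), which is 1.38-fold lower.

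Adcy5, the main adenylyl cyclase of striatal neurons, showed the largest difference among the brightest probe sets of the 9 genes. The less bright Arpp21 1451280_at differed about as much (-1.02). Its log2 signals were 10.12, 10.43 and 9.62 in Q92 mice 11, 25 and 66, against 11.14, 11.02 and 11.02 in wild-type mice 9, 12 and 17, all at 18 months. The wild-type mice lay close together, and the Q92 mice were all lower and more spread. The difference was -1.01 (SE 0.20, 95% interval -1.43 to -0.58), which is 2.01-fold lower, with an adjusted p of 0.123. A second Adcy5 probe set was also lower in every Q92 mouse (8.13, 8.41 and 7.99, against 8.56, 8.53 and 8.46 in wild-type mice), by -0.34 (SE 0.13, adjusted p = 0.536). The 2 remaining Adcy5 probe sets had signals of 3.42 to 4.06 and differed by -0.10 and 0.04.

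The PKA subunits stood at the other end. Prkar2b, the regulatory subunit RII beta that holds PKA inactive, had log2 signals of 9.05, 9.07 and 8.46 in Q92 mice 11, 25 and 66 at 18 months, against 9.20, 9.13 and 9.03 in wild-type mice. Without mouse Q92_18m_66 the difference of -0.26 (SE 0.15, adjusted p = 0.734) was -0.06, so it rested on that mouse. The other 2 Prkar2b probe sets differed by -0.22 and -0.04 (adjusted p = 0.742 and 0.980). Prkaca, the catalytic subunit C alpha, had 9.14, 8.98 and 9.33 in the Q92 mice, against 8.89, 9.12 and 9.45 in the wild-type mice, fully interleaved. Its difference was -0.00 (SE 0.15, 95% interval -0.34 to 0.33), and that of its second probe set -0.14 (SE 0.18, adjusted p = 0.923).

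Ppp1r1b encodes DARPP-32 itself. It had log2 signals of 10.23, 10.49 and 9.49 in Q92 mice 11, 25 and 66 at 18 months, against 11.14, 10.89 and 11.04 in wild-type mice 9, 12 and 17. All 3 Q92 mice were lower than every wild-type mouse, and mouse 66 was a full log2 unit below mouse 25. The only probe set of Ppp1r1b differed by -0.96 (SE 0.21, 95% interval -1.42 to -0.49), which is 1.94-fold lower, with an adjusted p of 0.180.

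Arpp19, a PKA substrate that inhibits protein phosphatase 2A when phosphorylated by the kinase MASTL, behaved much the same on 2 of its 3 probe sets. The brightest had 10.58, 10.79 and 9.95 in Q92 mice 11, 25 and 66 at 18 months, against 11.28, 11.24 and 11.32 in wild-type mice, without overlap. The difference was -0.84 (SE 0.19, adjusted p = 0.194), and another probe set differed by -0.72 (SE 0.18, adjusted p = 0.220). The remaining probe set, 1450685_at, had 10.19, 10.35 and 9.66 in Q92 mice, against 10.14, 9.65 and 9.96 in wild-type mice, a difference of 0.15 (SE 0.17, adjusted p = 0.907).

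Arpp21 encodes an RNA-binding protein of which a short form, the regulator of calmodulin signalling, is a PKA substrate in striatum. Its brightest probe set, 1424248_at, had 11.07, 11.02 and 10.39 in Q92 mice 11, 25 and 66 at 18 months, against 11.68, 11.70 and 11.60 in wild-type mice. The second, 1451280_at, had 10.32, 10.30 and 9.68 in Q92 mice, against 11.10, 11.28 and 10.98 in wild-type mice. On both, every Q92 mouse was well below every wild-type mouse. The differences were -0.83 (SE 0.15, adjusted p = 0.0868) and -1.02 (SE 0.16, adjusted p = 0.0557), the lowest adjusted p of the 25 probe sets. They lay close to the threshold, and with an intensity trend and a robust prior both passed it (adjusted p = 0.0425 and 0.0278).

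The other 3 Arpp21 probe sets did not share this difference. Probe set 1442121_at had 8.97, 8.45 and 7.40 in Q92 mice 11, 25 and 66 at 18 months, against 7.74, 7.16 and 7.62 in wild-type mice, a difference of 0.77 (SE 0.36, adjusted p = 0.636). Probe set 1419028_at had 8.96, 8.79 and 7.92, against 8.50, 8.11 and 8.14 in wild-type mice, and differed by 0.31 (SE 0.22, adjusted p = 0.807). Probe set 1440429_at had 6.57, 5.74 and 4.87, against 5.22, 5.08 and 5.24, and differed by 0.55 (SE 0.38, adjusted p = 0.789). In each of the 3, mice 11 and 25 were above all wild-type mice and mouse 66 was not. Without mouse 66 the differences were 1.20 for 1442121_at (adjusted p = 0.227), 0.63 for 1419028_at (adjusted p = 0.206) and 0.97 for 1440429_at (adjusted p = 0.385), and 0.35 for Arpp19 1450685_at (adjusted p = 0.494). With all 5 probe sets averaged, the Arpp21 difference was -0.05 (adjusted p = 0.986), so the value of this gene depends on which of its probe sets is read.

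Ptpn5 encodes STEP, the striatum-enriched tyrosine phosphatase that PKA inactivates and that dephosphorylates ERK kinases, the kinase Fyn and glutamate receptor subunits. Its log2 signals were 9.59, 10.06 and 9.07 in Q92 mice 11, 25 and 66 at 18 months, against 10.30, 10.30 and 10.07 in wild-type mice. The groups met at mouse Q92_18m_25, which was just below the lowest wild-type mouse. The difference was -0.65 (SE 0.21, adjusted p = 0.403). The other 2 Ptpn5 probe sets gave -0.75 (SE 0.21, adjusted p = 0.303) and -0.74 (SE 0.17, adjusted p = 0.200), also with every Q92 mouse below every wild-type mouse.

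**Figure D2:**
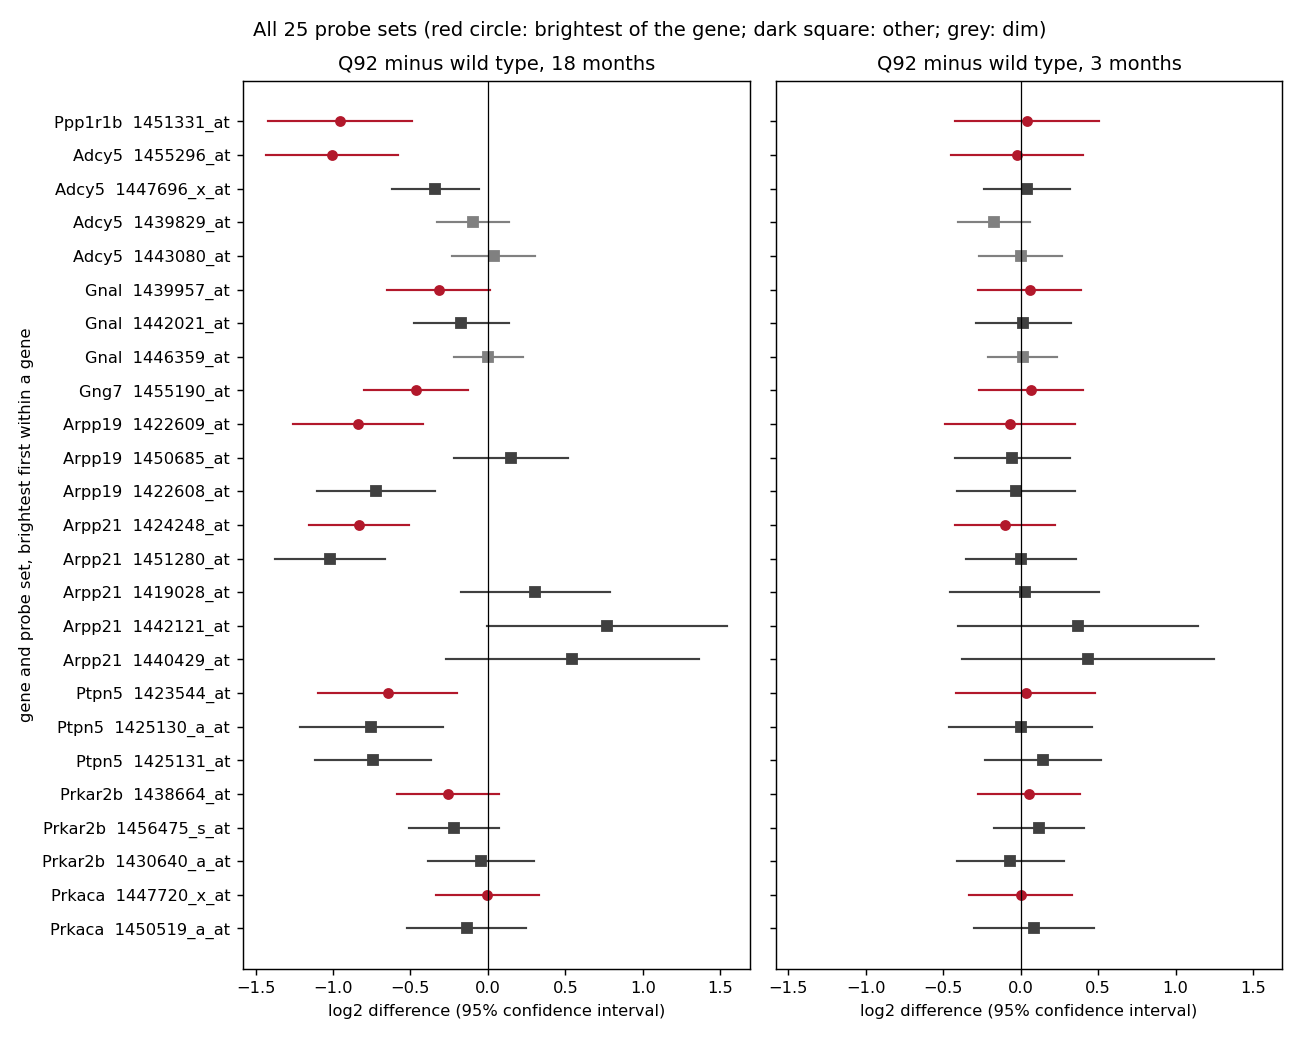
Log2 difference between Q92 and wild-type mice (x axis) for each of the 25 probe sets (y axis, by gene) at 18 months and at 3 months, with bars for 95% intervals, and with dim probe sets, whose mean signal did not exceed the array's 40th percentile, in grey. At 18 months the largest negative differences are -1.02 for Arpp21 1451280_at and -1.01 for Adcy5 1455296_at, 3 Arpp21 probe sets lie above 0, and at 3 months the points lie between -0.17 and 0.44, the highest being Arpp21 1440429_at.

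The Q92 mice at 18 months differed among themselves more than the other groups did on these genes. The median SD of the 9 genes was 0.378 in Q92 mice and 0.106 in wild-type mice at 18 months, and 0.174 in Q92 mice and 0.177 in wild-type mice at 3 months, while the median SD over all genes was between 0.112 and 0.133 in the 4 groups. The median deviation of the 9 genes from their means over 12 mice was -0.45, -0.19 and -0.97 in Q92 mice 11, 25 and 66, against 0.17, 0.10 and 0.11 in wild-type mice 9, 12 and 17 at 18 months. Mouse Q92_18m_66 was the lowest of the 12 mice in 8 of the 9 genes, all but Prkaca. Without it the differences were -0.67 for Ppp1r1b (adjusted p = 0.210), -0.79 for Adcy5 (adjusted p = 0.173), -0.59 for Arpp19 (adjusted p = 0.247), -0.62 for Arpp21 (adjusted p = 0.0656) and -0.39 for Ptpn5 (adjusted p = 0.522). Gng7 then differed by -0.27 and Gnal by -0.13. All 9 genes still averaged lower, 5 of them with an unadjusted p under 0.05 (6.2% of all genes in that fit), and 0 of 25 probe sets passed (0.0466% of all). The median difference of the 9 genes was -0.39 without this mouse, and -0.65 with it.

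Markers of the cells that express these genes stood lower beside them. Of 17 measured markers of striatal projection neurons, 17 averaged lower in Q92 mice at 18 months (median -0.80), and 1 of them, Penk, passed. Of all genes, 50.4% averaged lower and 0.077% passed in this comparison, which stands beside every list below as well. The mean deviation of the projection neuron list was -0.53, -0.38 and -1.06 in Q92 mice 11, 25 and 66, against 0.22, 0.08 and 0.16 in wild-type mice at 18 months. The order among the Q92 mice was the same as for the median deviation of the 9 genes, while Arpp21 and Prkaca taken singly had other orders. Of 11 markers of cortical excitatory neurons, 11 averaged higher (median 0.30, 0 passed), with list means of 0.87, 0.77 and -0.40 in Q92 mice 11, 25 and 66, against 0.21, -0.23 and -0.11 in wild-type mice. The 3 Arpp21 probe sets with positive differences had the same order among the Q92 mice as the cortical list, highest or near highest in mice 11 and 25 and lowest in mouse 66. Markers of thalamic or pallidal neurons were 0.87 in mouse Q92_18m_66, against -0.47 and -0.55 in the other Q92 mice and -0.31 to 0.59 in wild-type mice at 18 months. The 5-prime control probe set for 18S ribosomal RNA read 7.52, 6.21 and 8.31 in Q92 mice 11, 25 and 66 and 5.64 to 5.75 in the wild-type mice at 18 months, but up to 11.18 in Q92 mice and 8.70 in wild-type mice at 3 months. On the 3-prime set (7.19, 6.51 and 8.01, against 6.53 to 6.65) and the middle set (6.01, 5.21 and 6.41, against 5.07 to 5.39) mouse Q92_18m_25 was not above the wild-type mice. Of the other lists, 6 of 8 interneuron, 9 of 10 astrocyte, 7 of 9 oligodendrocyte, 7 of 9 microglia, 10 of 10 vessel and 8 of 10 choroid plexus or ependyma markers averaged lower in Q92 mice at 18 months, with list medians of -0.29 to -0.11 and 0 passed. The part of these marker and control values in the differences of the 9 genes was not tested.

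**Figure D3:**
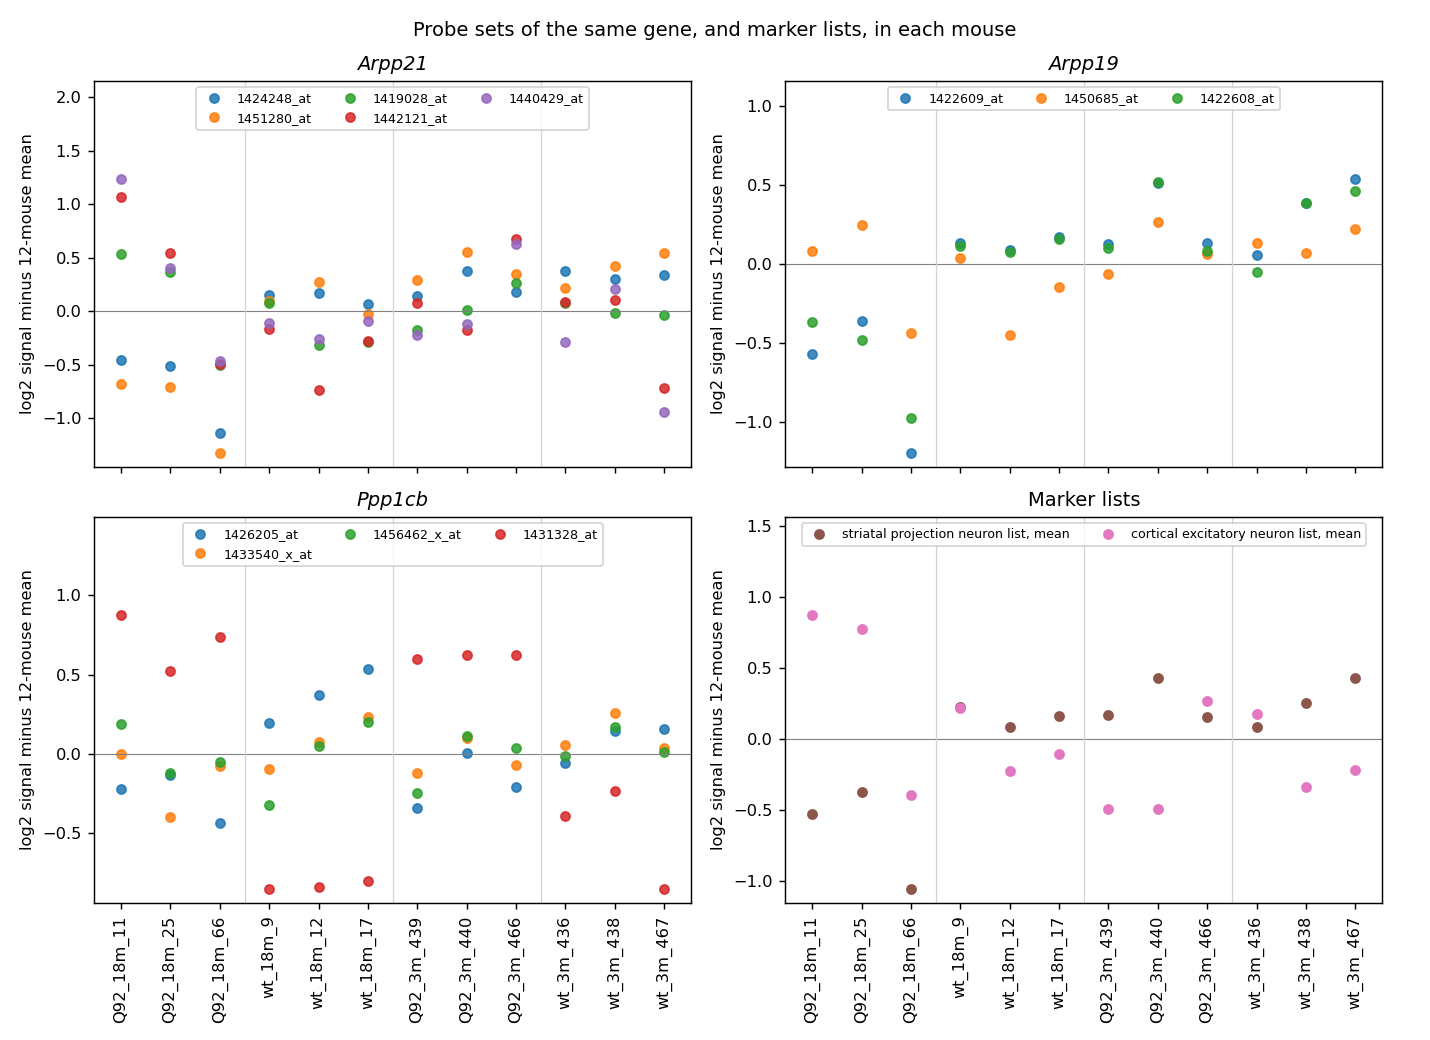
Log2 signal minus the mean of 12 mice (y axis) for each probe set of Arpp21, Arpp19 and Ppp1cb and for the means of 2 marker lists, in each mouse (x axis), with 1 colour per probe set or list and with mice of a group in no set order. In mice Q92_18m_11 and Q92_18m_25 the Arpp21 probe sets 1424248_at and 1451280_at lie below 0 and the other 3 above, while in mouse Q92_18m_66 all 5 lie below 0.

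Reading probe sets of a gene against each other within an array removes what they share, including the array's own level. Such a within-array difference has no meaning of its own, since probe sets bind with different strength, and only its shift between genotypes is read. The difference between Arpp21 1442121_at and 1424248_at was -2.55 ± 0.44 in Q92 mice and -4.15 ± 0.34 in wild-type mice at 18 months (SD, n = 3 each), 1.60 apart. The Arpp21 probe sets 1419028_at and 1440429_at shifted against 1424248_at by 1.14 and 1.38, and 1451280_at by -0.19. For Arpp19, 1450685_at against 1422609_at was -0.37 ± 0.08 in Q92 mice and -1.36 ± 0.22 in wild-type mice (SD, n = 3 each), 0.99 apart. In these 5 pairs at 18 months the groups did not overlap, and each exact permutation p was 0.1, two-sided, which is the smallest that 3 against 3 mice allow (0.2 when adjusted over 14 such comparisons). The other Arpp19 pair, 1422608_at against 1422609_at, shifted by 0.11 and overlapped (exact permutation p = 0.4). All Arpp21 pairs share 1424248_at, so they are not separate observations. The share of pairs without overlap over the whole array was not computed. At 3 months Arpp19 1450685_at against 1422609_at differed by 0.02 (exact permutation p = 1) and Arpp21 1442121_at against 1424248_at by 0.47 (exact permutation p = 0.4). Mouse Q92_18m_66 lay with the other Q92 mice and apart from the wild-type mice in the 5 pairs without overlap. These pairs were chosen after the values of the probe sets had been seen.

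At 3 months none of the 9 genes differed between genotypes beyond the spread of the mice. DARPP-32 had log2 signals of 10.91, 11.27 and 10.85 in mice Q92_3m_439, Q92_3m_440 and Q92_3m_466, against 10.80, 10.90 and 11.21 in mice wt_3m_436, wt_3m_438 and wt_3m_467, a difference of 0.04 (SE 0.21). Adcy5 had 10.95, 11.26 and 10.97 in Q92 mice, against 10.77, 11.06 and 11.43 in wild-type mice, a difference of -0.02 (SE 0.20). Arpp21 had 11.68, 11.90 and 11.71 in Q92 mice, against 11.90, 11.83 and 11.87 in wild-type mice, a difference of -0.10 (SE 0.15). In all 3 genes the mice of both genotypes were mixed. Of the 9 genes, 4 averaged lower and 5 higher, from -0.10 for Arpp21 to 0.06 for Gng7, with a median of 0.03 against -0.02 for all genes. An unadjusted p under 0.05 was reached by 0 of the 25 probe sets, against 2.64% of all, every adjusted p was 1.00, 0 of the 9 genes had all Q92 mice below all wild-type mice (4.34% of all genes), and 0.0111% of all probe sets passed. The 95% intervals still allowed sizeable differences, from -0.42 to 0.51 for Ppp1r1b and from -0.45 to 0.40 for Adcy5.

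The change of the genotype difference from 3 to 18 months was tested directly. It was -1.00 for Ppp1r1b (SE 0.30, adjusted p = 0.915), -0.98 for Adcy5 (SE 0.28, adjusted p = 0.900), -0.77 for Arpp19, -0.73 for Arpp21, -0.68 for Ptpn5, -0.53 for Gng7, -0.38 for Gnal, -0.31 for Prkar2b and -0.00 for Prkaca. Without mouse Q92_18m_66 it was -0.71 for Ppp1r1b, -0.77 for Adcy5, -0.52 for Arpp19 and -0.51 for Arpp21. In that fit it was -0.43 for Ptpn5, -0.34 for Gng7, -0.18 for Gnal, -0.11 for Prkar2b and -0.09 for Prkaca. An unadjusted p under 0.05 was reached by 10 of the 25 probe sets, all negative, against 2.71% of all probe sets in that direction. The lowest adjusted p was 0.648, for Arpp21 1451280_at (-1.02), and 0 of the 45037 probe sets passed in this comparison (5.18% had an unadjusted p under 0.05). No gene's change of the difference passed the test.

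Between 3 and 18 months in Q92 mice, 19 of the 25 probe sets averaged lower and 2 passed the threshold, both of Arpp21 and both lower. Of all probe sets, 0.164% passed with a lower mean and 0.206% passed in either direction, and 48.1% of all genes averaged lower. Probe set 1424248_at had 11.07, 11.02 and 10.39 at 18 months, against 11.68, 11.90 and 11.71 at 3 months, and fell by 0.94 on the log2 scale (SE 0.15, adjusted p = 0.0327). Probe set 1451280_at had 10.32, 10.30 and 9.68, against 11.29, 11.56 and 11.35, and fell by 1.30 (SE 0.16, adjusted p = 0.0138). No 18-month mouse reached any 3-month mouse on either. Neither passed without mouse Q92_3m_440 (adjusted p = 0.186 and 0.0930) or in a fit of only the 6 Q92 arrays (adjusted p = 0.165 and 0.0607), and 1424248_at also missed the threshold without mouse Q92_3m_439 (adjusted p = 0.0917) or Q92_3m_466 (adjusted p = 0.0666). Without mouse Q92_18m_25, 4 probe sets passed, those of Arpp21 with Adcy5 (adjusted p = 0.0430) and Arpp19 (adjusted p = 0.0498), where 0.193% of all probe sets passed. The remaining Arpp21 probe sets averaged higher at 18 than at 3 months in Q92 mice, with means of 8.55 against 8.46 (1419028_at), 8.27 against 8.09 (1442121_at) and 5.73 against 5.43 (1440429_at). With all Arpp21 probe sets averaged, the difference with age was -0.33 (adjusted p = 0.594).

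The remaining genes had similar or smaller differences with age in Q92 mice and did not pass. Adcy5 differed by -1.00 (adjusted p = 0.0760), Arpp19 by -0.96 (adjusted p = 0.0808), Ppp1r1b by -0.94 (adjusted p = 0.117), Gng7 by -0.64 (adjusted p = 0.134), Ptpn5 by -0.62 (adjusted p = 0.285) and Gnal by -0.40 (adjusted p = 0.376). Prkar2b differed by -0.23 and Prkaca, the only gene higher at 18 months, by 0.24. Without mouse Q92_18m_66 the differences were -0.79 for Adcy5, -0.72 for Arpp19, -0.65 for Ppp1r1b and -0.45 for Gng7. In that fit they were -0.03 for Prkar2b, -0.21 for Gnal, -0.37 for Ptpn5 and 0.14 for Prkaca. The median was -0.64, against 0.01 for all genes, and 7 of the 9 genes were lower with an unadjusted p under 0.05, against 5.03% of all genes (5 genes without mouse Q92_18m_66, against 4.87% of all). All 3 mice of 18 months lay below all 3 of 3 months in 6 of the 9 genes, as in 7.52% of all genes. This comparison uses the same 3 Q92 mice of 18 months as the comparison with wild-type mice, so the values of both are given side by side only.

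In wild-type mice the genes showed little difference with age. The median between 18 and 3 months was -0.02, against -0.01 for all genes, with 5 genes lower and 4 higher, from -0.21 for Arpp21 (SE 0.15, adjusted p = 0.641) to 0.24 for Prkaca (SE 0.15, adjusted p = 0.601). Ppp1r1b differed by 0.06 and Adcy5 by -0.02. None of the 25 probe sets passed (0.0511% of all passed), and 0 had an unadjusted p under 0.05 (10.6% of all). The lowest adjusted p was 0.494, for the second Prkaca probe set, which averaged 0.37 higher at 18 months. Arpp21 1424248_at was lower in all 3 mice of 18 months (11.68, 11.70 and 11.60, against 11.90, 11.83 and 11.87 at 3 months), as were 8.81% of all genes.

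The rest of the cascade was read from 11 lists with 115 genes, 105 of them measured, leaving out the 9 genes above. At 18 months 50 of the 105 averaged lower and 55 higher in Q92 mice, with a median difference of 0.01. None of their brightest probe sets passed in either direction (0.077% of all genes passed), 11 were lower with an unadjusted p under 0.05 (4.95% of all genes) and 5 were higher (3.07% of all genes). At 3 months 52 averaged lower and 53 higher, 0 passed (0.0165% of all genes), and 1 was lower with an unadjusted p under 0.05 (1.48% of all genes). Over all 301 probe sets of these genes, 1 passed at each age, the Ppp1cb probe set described below.

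**Figure D4:**
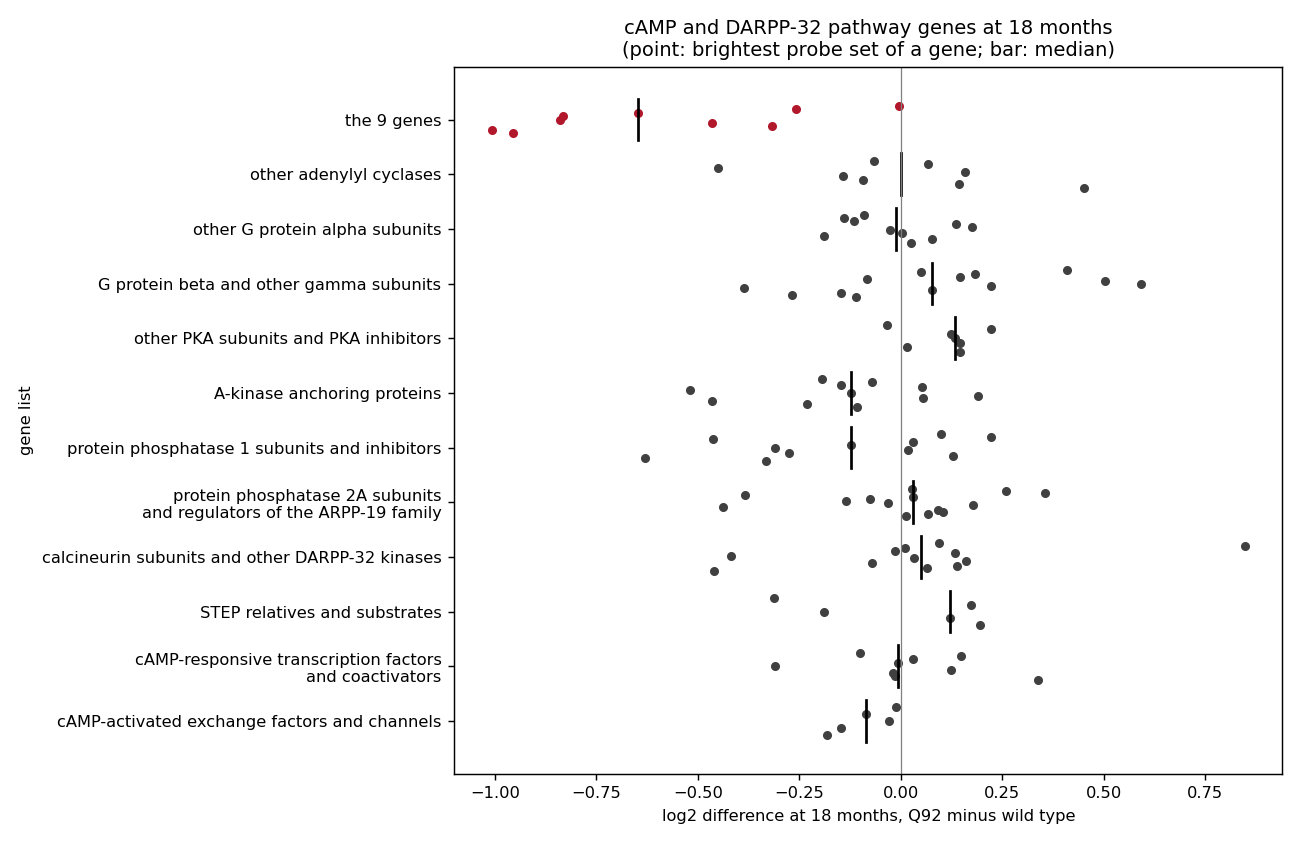
Log2 difference between Q92 and wild-type mice at 18 months (x axis) for the 9 genes (top row) and each measured gene of the 11 lists (other rows). A point is the brightest probe set of a gene and a bar the median of the row. The 9 genes lie between -1.01 and -0.00 with a median of -0.65. The medians of the 11 lists lie between -0.12 and 0.13, and their points spread to both sides of 0, from -0.63 for Ppp1cb to 0.85 for Csnk2a1.

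Upstream of PKA, the other adenylyl cyclases and G protein subunits had differences on both sides of 0, and these lists were not tested against Adcy5, Gnal and Gng7. Of 8 other adenylyl cyclases 4 were lower and 4 higher, the largest being Adcy1, a calmodulin-activated cyclase, at 0.45 (adjusted p = 0.495) and Adcy7 at -0.45 (adjusted p = 0.812). Of 10 other alpha subunits 5 were lower and 5 higher, within -0.19 for Gnai2 and 0.17 for Gnaz. Among 13 beta and other gamma subunits 5 were lower and 8 higher. Gng3, a neuronal gamma subunit, had 10.95, 11.04 and 10.93 in Q92 mice, against 10.47, 10.36 and 10.32 in wild-type mice, without overlap, and differed by 0.59 (SE 0.15, adjusted p = 0.242). Gng13 differed by 0.41 (adjusted p = 0.368) and Gng4 by 0.50 (adjusted p = 0.722). The lowest of this list was Gnb5, a beta subunit named after its value was seen, at -0.39 (adjusted p = 0.262). Without mouse Q92_18m_66 Adcy7 differed by -0.84 and Gng4 by 0.31.

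The lists around PKA and the phosphatases were mixed as well. Of 7 other PKA subunits and inhibitors 6 were higher, all by 0.22 or less. Among 11 A-kinase anchoring proteins, which place PKA near its targets, 8 were lower. They were led by Akap9 at -0.52 (adjusted p = 0.200) and Akap5 at -0.47 (adjusted p = 0.466). Of 11 genes for protein phosphatase 1 subunits and inhibitors 6 were lower, among them the catalytic subunits Ppp1cb at -0.63 (adjusted p = 0.130) and Ppp1ca at -0.33 (adjusted p = 0.321) and the scaffold neurabin, Ppp1r9a, at -0.46 (adjusted p = 0.254). Protein phosphatase 2A subunits and regulators numbered 14, of which 5 were lower, the largest being Ppp2r2a at -0.44 (adjusted p = 0.242). Ppp2r2a encodes a B55 subunit, the kind that phosphorylated ARPP-19 inhibits.

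Calcineurin, which removes the PKA phosphate from DARPP-32, was read through its subunits together with the kinases that phosphorylate DARPP-32 at other sites. Of these 12 genes 4 were lower and 8 higher. The catalytic subunit Ppp3ca had 11.81, 12.02 and 11.49 in Q92 mice at 18 months, against 12.30, 12.16 and 12.24 in wild-type mice, without overlap, and differed by -0.46 (SE 0.12, adjusted p = 0.242). The casein kinase 2 subunit Csnk2a1 differed by 0.85 (SE 0.38, adjusted p = 0.625), and the Cdk5 activator Cdk5r2 by -0.42 (adjusted p = 0.653). STEP relatives and substrates numbered 5 measured genes, 2 lower and 3 higher, with the tyrosine kinase Ptk2b at -0.31 (adjusted p = 0.783). With a block for age in days, which leaves only Q92 mouse 11 against wild-type mice 12 and 17, Ptk2b differed by 0.04. Of 9 cAMP-responsive transcription factors and coactivators 5 were lower, with Creb1 at 0.34 (adjusted p = 0.697) and its coactivator Crtc1 at -0.31 (adjusted p = 0.686). Without mouse Q92_18m_66 Ptk2b differed by -0.01, Crtc1 by -0.10 and Cdk5r2 by -0.19. The 5 measured genes of the list of exchange factors and channels linked to cAMP were all lower, by 0.18 or less.

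Ppp1cb was the only gene of these lists with a probe set past the threshold, and its 4 probe sets disagreed. Probe set 1431328_at had 6.57, 6.21 and 6.43 in Q92 mice at 18 months, against 4.84, 4.85 and 4.89 in wild-type mice, and rose by 1.54 (SE 0.14, adjusted p = 0.00113). At 3 months it had 6.29, 6.32 and 6.32 in Q92 mice, against 5.30, 5.46 and 4.84 in wild-type mice, and rose by 1.11 (SE 0.14, adjusted p = 0.0284). At both ages every Q92 mouse was above every wild-type mouse. A block for age in days left only Q92 mouse 11 against wild-type mice 12 and 17 at 18 months. Their difference was 1.70, and no call is read from it. The call at 3 months was lost with this block (adjusted p = 0.242), and in 8 of 15 alternative settings in all. The brightest, 1426205_at, was lower in every Q92 mouse at 18 months (9.78, 9.87 and 9.56, against 10.19, 10.37 and 10.53), and the 2 others differed by -0.23 and 0.03. Within the array, 1431328_at against 1426205_at differed between genotypes by 2.18 at 18 months and 1.37 at 3 months. Each exact permutation p was 0.1, the smallest possible with 3 mice per group (0.2 when adjusted over 14 comparisons). This pair was chosen after its values had been seen. At 18 months both probe sets already lay apart between genotypes, in opposite directions, so the pair could not overlap and its p adds nothing. Ppp1cb lies on chromosome 5, as does Htt, the gene that carries the knock-in, whose brightest probe set differed by 0.10 at 18 months (adjusted p = 0.883). At 3 months that Htt probe set differed by 0.30 (SE 0.10, unadjusted p = 0.0094), with every Q92 mouse higher, and did not pass. The other Htt probe sets differed by -0.26, -0.14 and 0.11 at 18 months (adjusted p = 0.699, 0.816 and 0.945). On those at -0.26 and -0.14 every Q92 mouse was lower, as in 6.76% of all probe sets.

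Genes with a pattern over the mice like that of Ppp1r1b were ranked by the root mean square (RMS) difference between centred log2 signals over the 12 arrays, among 12760 genes with a mean signal over the array's 40th percentile, where the median RMS was 0.507. All share the same 12 arrays, so this is a description with no test. Lingo3 was nearest (RMS 0.048), followed by Rxrg, a retinoid receptor of striatal neurons (0.088), Adcy5 (0.096), Gsg1l (0.097), Tbc1d8 (0.103), Jcad (0.111), Arpp19 (0.114), Inf2 (0.119), Rgs9, the striatal regulator of G protein signalling (0.127), and Cd4 (0.131). Rgs9 and Rxrg are also on the list of projection neuron markers above. Arpp21 ranked 30th, Gng7 50th, Ptpn5 52nd, Gnal 162nd, Prkar2b 418th and Prkaca 10804th. The 10 nearest genes differed between Q92 and wild-type mice at 18 months by -0.77 for Inf2 to -1.07 for Rgs9. At 3 months they differed by -0.09 for Tbc1d8 to 0.16 for Jcad. They were picked for likeness to Ppp1r1b over these same arrays, so differences near those of Ppp1r1b follow from the choice.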

How the data were processed

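Gene expression in the striatum of 12 mice was read on 12 Affymetrix arrays. The authors deposited log2 signals per probe set. The submitters' processing notes name RMA and affy, and no source says whether all arrays went through RMA together. RMA sets arrays to a common distribution, so a difference is relative to the other genes. Values (2.03 to 14.1) were used as deposited. The 45101 probe sets include 64 control probe sets, left out of the tests. The probe table names 1 gene for 34945 probe sets, several for 932 and none for 9160. Arrays give no read depth, and 3 arrays per group limit the precision (median SE of a difference 0.122 at 18 months).

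All arrays entered one limma 3.58.1 model (R 4.3.3) of 4 group means, with moderated tests for 5 contrasts and Benjamini-Hochberg adjustment over 45037 probe sets. The fit was tested on simulated data. The threshold was an adjusted p of 0.05. Pairs of probe sets were compared with exact permutation tests. The 9 genes, the pathway and marker lists, the tests and the alternatives were chosen with earlier results of these data known. Genes named are the 9 genes, per pathway list the 3 largest differences at 18 months and any gene with a probe set past the threshold, Htt, and the 10 genes most like Ppp1r1b. Marker lists cover projection neurons, cortical excitatory neurons, thalamic or pallidal neurons, interneurons, astrocytes, oligodendrocytes, microglia, vessels and choroid plexus or ependyma. Promoter windows came from RefSeq (GRCm38.p6). Each mouse has its own number, so replicates are separate animals.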

Additional observations from a re-analysis of the deposited data

How the results depend on the processing

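Alternatives were quantile normalisation, a common array median, a filter on dim probe sets, a trended robust prior, weights for arrays, a sex covariate, a block for age in days, a fit to the arrays compared alone, a single probe set for each gene, probe sets averaged per gene, each array left out in turn, and both poorest arrays (lowest mean correlation at their age, Q92_18m_66 and wt_3m_467) left out together. At 18 months the age block leaves only Q92 mouse 11 against wild-type mice 12 and 17, all of 596 days, because each other age in days was held by 1 mouse. No paired analysis was possible because every mouse has its own number. Of 1576 single-gene values under these, 1495 kept direction and side of the threshold. Most belong to results that had not passed, for which staying so counts as kept. Of those that had passed, Ppp1cb 1431328_at lost its call in 8 of 15 settings at 3 months and 1 of 15 at 18 months. With age in Q92 mice Arpp21 1424248_at lost it in 5 of 16 and 1451280_at in 2 of 14. The 3 arrays per group limit what can be called.

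At 18 months 1 of the 25 probe sets passed under quantile normalisation, array weights, a single probe set per gene and without both poorest arrays, and 2 with the trended prior, where 0.0733%, 0.124%, 0.203%, 0.12% and 0.0999% of all features passed, against 0.0533% in the main analysis. All were of Arpp21, namely 1451280_at (adjusted p = 0.0415, 0.0374, 0.0431 and, with the trend, 0.0278) and 1424248_at (0.0478 with a single probe set per gene, 0.0425 with the trend), and 0 passed without any single array. With age in Q92 mice 0 passed with the arrays compared alone or probe sets averaged (0.0644% and 0.385% of all features), 1 with a single probe set per gene (0.374%), and 0 to 4 without single arrays (0.0155% to 0.193%). The median difference at 18 months was -0.35 with probe sets averaged, -0.39 without both poorest arrays, and -0.89 to -0.39 without single arrays. Its change with age was -0.31 with probe sets averaged and -0.83 to -0.43 without single arrays, and the median with age in Q92 mice was -0.38 with probe sets averaged and -0.87 to -0.45 without single arrays. Averaging brings in the dimmer probe sets, and the other causes were not tested.

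Some differences reversed, none of which had passed. With probe sets averaged, Ppp1cb was 0.18, Akap9 0.18, Akap2 0.12 and Creb3 -0.0070 at 18 months, and Arpp21 was 0.15 and Prkaca 0.042 at 3 months. With the block for age, in Q92 mouse 11 against wild-type mice 12 and 17, Gnal 1442021_at was 0.011, Hcn2 0.042, Ptk2b 0.04 and Rapgef2 0.013 at 18 months. With array weights at 3 months Adcy5 was 0.060, Arpp19 0.0033 and Prkaca 0.038, and Adcy5 was 0.031 between ages in wild type. The Prkaca change of difference was 0.012 under quantile normalisation and 0.021 with sex. Without both poorest arrays Gnal 1442021_at was 0.0086 at 18 months, Adcy5 0.15 and Arpp19 0.035 at 3 months, and Adcy5 0.15 and Gnal 0.060 between ages in wild type.

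Without single arrays the 18-month differences ran from -0.13 to 0.14 for Prkaca, -0.28 to 0.0086 for Gnal 1442021_at and -0.12 to 0.14 for Ppp1cb 1456462_x_at. The 3-month differences ran from -0.088 to 0.16 for Ppp1r1b, -0.18 to 0.15 for Adcy5, -0.0031 to 0.14 for Gnal, -0.028 to 0.14 for Gng7, -0.20 to 0.035 for Arpp19, -0.12 to 0.13 for Ptpn5, -0.038 to 0.16 for Prkar2b and -0.068 to 0.10 for Prkaca. The Prkaca change of difference ran from -0.13 to 0.14. Between ages in wild type they ran from -0.031 to 0.17 for Ppp1r1b, -0.18 to 0.15 for Adcy5, -0.10 to 0.060 for Gnal and -0.092 to 0.16 for Ptpn5. The Ppp1cb 1431328_at call at 3 months was lost without mouse Q92_3m_439, Q92_3m_440, Q92_3m_466 or wt_3m_436 (adjusted p = 0.215, 0.233, 0.192 and 0.124). It was also lost without both poorest arrays (0.0708) and with sex (0.104), the age block (0.242) or the arrays compared alone (0.563). At 18 months the age block gave a difference of 1.70, from which no call is read.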
